A study of Mus musculus with 15 samples.

Results

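The miRNAs described here come from the miR-379 to miR-410 cluster of mouse chromosome 12, whose distal part lies in the noncoding transcript Mirg. They were chosen by name: every mature miRNA row of the count table that carries one of the cluster's numbers, whatever its letter or arm. The choice gave 61 of the 1205 rows, and 24 of the 61 had enough reads to be tested. Small RNA had been sequenced from platelet-free plasma of male wild-type C57BL/6J mice 24 h after surgery. The surgery was either a sham operation (6 libraries) or cecal ligation and puncture, CLP, in which the cecum is tied and pierced so that gut bacteria leak into the abdomen (9 libraries). The labels give no age, and whether each library stands for its own mouse is not stated; p-values therefore reflect spread between libraries, part of which may be technical. Library totals ran from 5274676 to 10702028 counts in sham and from 6181056 to 13576482 in CLP.

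The cluster belongs to the imprinted Dlk1-Dio3 region, in which the noncoding genes and their miRNAs are transcribed from the maternal chromosome and the protein-coding genes from the paternal one. Its hairpins are cut from long transcripts, and each can give a 5p and a 3p mature strand that pairs with target mRNAs through its seed, bases 2 to 8. In the adult the cluster is known chiefly from brain, where the transcription factor Mef2 drives it in active neurons, and mice that lack it handle the metabolic change at birth poorly. What plasma holds of it is a mixture: release from more cells, release of more RNA per cell and slower removal cannot be told apart in these samples. Levels below are relative to the counts of each library and are not amounts per volume of plasma. Changes in other miRNAs can therefore also shift them.

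RefSeq (GRCm38.p6, the mm10 assembly) gave sequences for 57 of the 61 rows and placed them in 34 precursors on chromosome 12, 33 on the plus strand and 1, Mir299b, on the minus strand opposite Mir299a, from 109709060 to 109743795, a span of 34736 bases. By GENCODE M21 the last 12 precursors, from Mir382 to Mir410, lie within the long noncoding gene Mirg, 8 overlapping an exon and 4 in an intron. The other 22 lie upstream of Mirg, where no gene other than miRNA genes is annotated on the precursor's own strand. The mature strands below are those that passed the test of CLP against sham, with the seed in capitals. They are shown because the members moved in opposite directions and the seed sets which mRNAs each can bind. The 12 higher in CLP come first, in chromosome order.
miR-379-5p: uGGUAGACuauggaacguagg
miR-411-5p: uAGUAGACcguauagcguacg
miR-323-3p: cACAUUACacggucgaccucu
miR-300-3p: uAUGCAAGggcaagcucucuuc
miR-381-3p: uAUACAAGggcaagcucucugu
miR-382-5p: gAAGUUGUucgugguggauucg
miR-382-3p: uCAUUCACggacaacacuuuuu
miR-134-5p: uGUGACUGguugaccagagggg
miR-377-3p: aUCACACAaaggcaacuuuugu
miR-409-5p: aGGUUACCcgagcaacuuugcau
miR-412-5p: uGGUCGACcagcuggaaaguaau
miR-410-3p: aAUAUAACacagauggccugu
Of the 4 lower in CLP, these 3 had a sequence in RefSeq's table, and the fourth was miR-485-5p.
miR-667-3p: uGACACCUgccacccagcccaag
miR-485-3p: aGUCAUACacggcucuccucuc
miR-541-5p: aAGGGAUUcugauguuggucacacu

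The 23 tested members with a sequence had 23 different seeds. In 3 pairs the seeds differed at a single base, counted from the 5′ end of the strand. The pairs were miR-300-3p and miR-381-3p (G4A), miR-379-5p and miR-411-5p (G2A), and miR-379-5p and miR-412-5p (A5C), and all 5 of these miRNAs rose in CLP. Precursors Mir300 and Mir381 are neighbours among those matched, as are Mir379 and Mir411.

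Of the 24 tested members, 12 were higher and 4 lower in CLP at an adjusted p under 0.05, and 8 did not pass (edgeR's quasi-likelihood test, adjusted over all 426 tested miRNAs). Among all tested miRNAs, 25.4% were higher and 21.8% lower, 108 and 93 in number. The median log2 fold change, CLP over sham, was 1.26 for the tested members and 0.11 for all tested miRNAs. Members that passed the filter on low counts did so partly through the group in which they were read more, so these counts describe the tested members and not the 61. In 3 members every CLP library lay above every sham library, and in 1 every CLP library lay below, where 8.45% and 11.3% of all tested miRNAs were separated in these directions. The choice of scaling shifted every fold change: with plain library sizes in place of TMM factors the median of the tested table moved from 0.11 to -0.12, its calls became 90 higher and 126 lower, and those of the cluster 11 and 4.

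**Figure D1:**
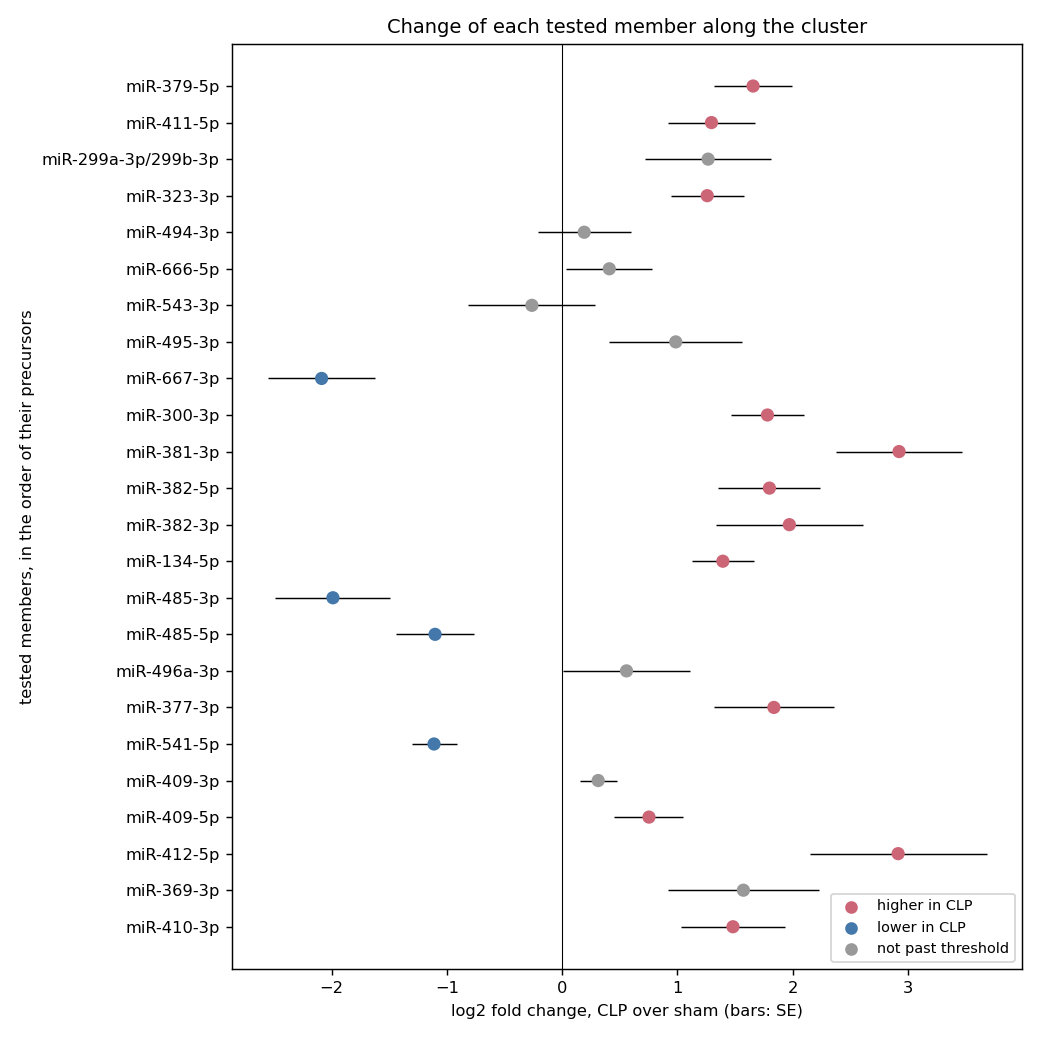
Log2 fold change of CLP over sham (x axis, bars are SE) for the 24 tested members, listed in the order of their precursors along the chromosome, red for higher in CLP, blue for lower and grey for not past the threshold. Members higher in CLP occur from miR-379-5p at one end to miR-410-3p at the other, with miR-667-3p, both miR-485 strands and miR-541-5p on the left of 0 between them.

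The member with the most reads, miR-541-5p, moved against most of the cluster. It was at 494 CPM in the lowest sham library, 650.3 at the median and 819.9 in the highest, and at 232, 266 and 544 CPM in CLP, where CPM is counts per 1000000 of the scaled library. CLP 2 was the only CLP library that reached the sham range. Its log2 fold change was -1.11 ± 0.20 (SE, edgeR adjusted p = 0.000154). In sham it made up 65.2% to 72.5% of the cluster's summed level, and in CLP 26.0% (CLP 2) to 47.5% (CLP 5), ranges that do not overlap.

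The cluster's summed level overlapped between the groups. In sham all 61 rows together held 968 ± 157 CPM (SD, n = 6), and in CLP they held 972 ± 459 (n = 9), or 832 ± 195 without CLP 2. The medians were 972 CPM in sham and 802 in CLP, and with plain library sizes the means were 1071 and 901 CPM. Without miR-541-5p the sum was 306 ± 48.9 CPM in sham and 666 ± 368 in CLP. It ran from 215.5 to 357 CPM in sham and from 291 (CLP 5) to 1551 (CLP 2) in CLP, and CLP 5 alone lay within the sham range. As a share of raw counts the cluster held 0.0758% to 0.133% of sham libraries and 0.0525% to 0.186% of CLP libraries. Sums over members chosen with results known were not tested.

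**Figure D2:**
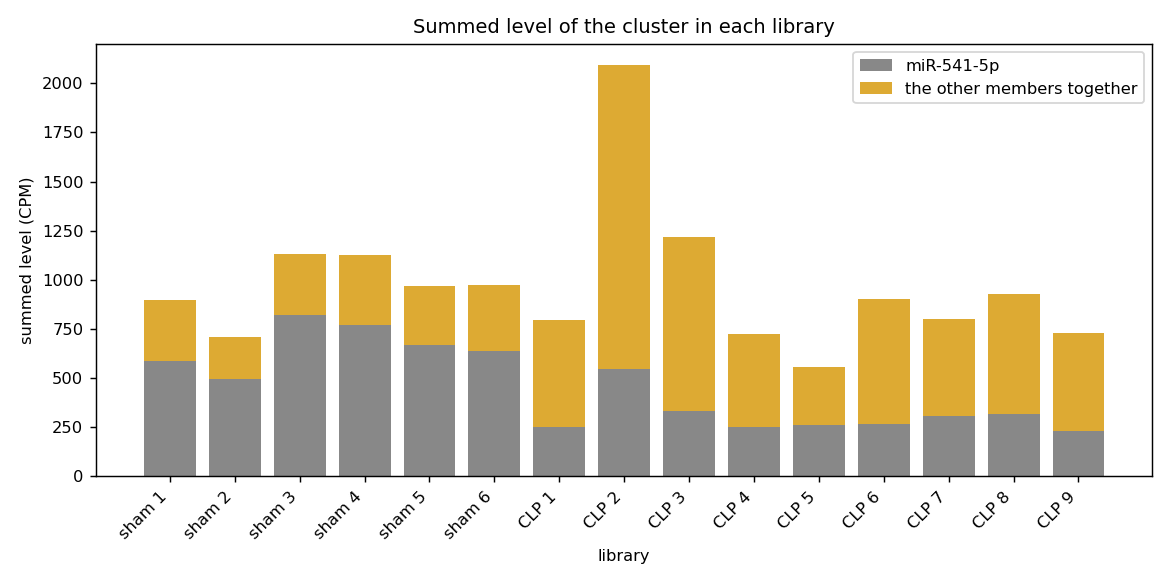
Summed level of the 61 rows in each of the 15 libraries (bars from 0, CPM), split into miR-541-5p (grey) and all other members (yellow). The grey part takes over 65% of each sham bar and under 48% of each CLP bar, and CLP 2 has the tallest bar at 2095 CPM.

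The largest rises were in miR-381-3p and miR-412-5p. miR-381-3p stood at 9.23, 12.1 and 20.4 CPM in sham (lowest, median and highest) and at 27.3, 70.7 and 407 CPM in CLP. The groups did not overlap, and the top value, in CLP 2, was far above the next, 123 CPM in CLP 3. It rose by 2.92 ± 0.54 on the log2 scale (edgeR adjusted p = 0.000331); leaving out CLP 2 lowered this to 2.22. miR-412-5p was scarce in sham, at 0 to 2.34 CPM with a median of 0.469, and reached 0.617, 3.89 and 15.6 CPM in CLP. It rose by 2.91 ± 0.77 (edgeR adjusted p = 0.00421), and 7 of the 9 CLP values exceeded the whole sham group.

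miR-300-3p, which differs from miR-381-3p in its seed by the G4A change given above, also rose. Its levels were 29.0, 36.7 and 54.8 CPM in sham and 55.3, 112 and 323 CPM in CLP, so that the lowest CLP library lay just above the highest sham library. The log2 fold change was 1.78 ± 0.32 (edgeR adjusted p = 0.000166), and its difference from that of miR-381-3p was not tested. Both miR-300-3p and miR-381-3p held counts that were not whole in 2 libraries, which can come from reads shared with similar miRNAs, so their values are less certain.

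In the proximal stretch of the cluster miR-379-5p, miR-411-5p and miR-323-3p rose. miR-379-5p, from the first precursor, was at 11.2, 18.0 and 27.1 CPM in sham and 18.4, 55.0 and 128 CPM in CLP. CLP 5 alone lay within the sham range, and the log2 fold change was 1.66 ± 0.34 (edgeR adjusted p = 0.000641). miR-411-5p, from the next precursor, was at 5.50, 6.997 and 8.41 CPM in sham and 5.29, 13.7 and 50.8 CPM in CLP. Its log2 fold change was 1.30 ± 0.38 (edgeR adjusted p = 0.00827), with CLP 5 below every sham library and the other 8 CLP libraries above. miR-323-3p was at 2.17, 3.67 and 8.16 CPM in sham and 4.14, 10.1 and 13.6 CPM in CLP. It rose by 1.26 ± 0.32 (edgeR adjusted p = 0.00301), and CLP 1 was the only CLP library that did not exceed every sham library.

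miR-134-5p, a brain miRNA known to act in dendrites by repressing Limk1, was among the evenest risers. It stood at 3.97, 11.4 and 12.5 CPM in sham and 17.4, 28.0 and 39.7 CPM in CLP, with no overlap. Its log2 fold change was 1.39 ± 0.27 (edgeR adjusted p = 0.000363). Both strands of the neighbouring miR-382 hairpin rose. miR-382-5p was at 8.85, 15.7 and 22.9 CPM in sham and 18.2, 33.9 and 165 CPM in CLP, a log2 fold change of 1.80 ± 0.44 (edgeR adjusted p = 0.00285) with CLP 5 alone inside the sham range. miR-382-3p was at 0, 0.839 and 1.94 CPM in sham, where 4 of 6 libraries held a read, and at 0.862, 3.08 and 6.20 CPM in CLP. Its log2 fold change was 1.97 ± 0.64 (edgeR adjusted p = 0.0157). The call of miR-382-3p was lost in 4 of 25 alternative analyses, with adjusted p up to 0.302. Among these were correction for each library's GC trend (adjusted p = 0.0587) and replicates 1 to 6 of each group alone (0.0704).

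At the distal end miR-377-3p and miR-410-3p rose and miR-409-5p passed narrowly. miR-377-3p was at 0.400, 1.01 and 2.01 CPM in sham and 1.32, 3.55 and 9.11 CPM in CLP (log2 fold change 1.84 ± 0.52, edgeR adjusted p = 0.00665), and 6 of the 9 CLP values exceeded the sham maximum. miR-410-3p, the last of the cluster, was at 0.641, 3.01 and 4.43 CPM in sham and 3.61, 6.00 and 21.3 CPM in CLP (1.48 ± 0.45, edgeR adjusted p = 0.0104), and 8 of the 9 did so. The call of miR-410-3p was lost in 2 of 26 alternative analyses, with adjusted p up to 0.261. miR-409-5p was at 43.6, 65.8 and 80.1 CPM in sham and 37.0, 88.0 and 191 CPM in CLP. Its log2 fold change of 0.75 ± 0.30 (edgeR adjusted p = 0.0458) missed the threshold in 21 of 26 alternative analyses, with adjusted p up to 0.186. On leaving out 1 library it passed without CLP 5 (0.0117) or CLP 9 (0.0478) and lost the call without any of the other 13, and CLP 5 lay below the sham minimum.

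Besides miR-541-5p, 3 members fell. miR-667-3p was at 3.18, 6.74 and 11.9 CPM in sham and 0, 1.44 and 3.10 CPM in CLP. The groups did not overlap, although the gap between them was narrow, and the 0 in CLP 1 allows up to 0.517 CPM (3 counts, for counting error only). The log2 fold change was -2.09 ± 0.46 (edgeR adjusted p = 0.00114). Both strands of the miR-485 hairpin, which lies in an exon of Mirg next to Mir668, were lower. miR-485-5p, known to restrain synaptic vesicle protein SV2A in neurons, was at 12.6, 25.8 and 33.8 CPM in sham and 3.62, 10.9 and 19.9 CPM in CLP (-1.10 ± 0.34, edgeR adjusted p = 0.0116), and 6 of the 9 CLP values were under the sham minimum. miR-485-3p was at 1.54, 3.91 and 7.05 CPM in sham and 0.182, 0.778 and 2.76 CPM in CLP (-1.99 ± 0.50, edgeR adjusted p = 0.00299), and 8 of the 9 were under it. Mir382, Mir134, Mir668 and Mir485 follow each other and all overlap exons of Mirg: the tested strands of the first pair rose, those of Mir485 fell, and miR-668 was too scarce to be tested.

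**Figure D3:**
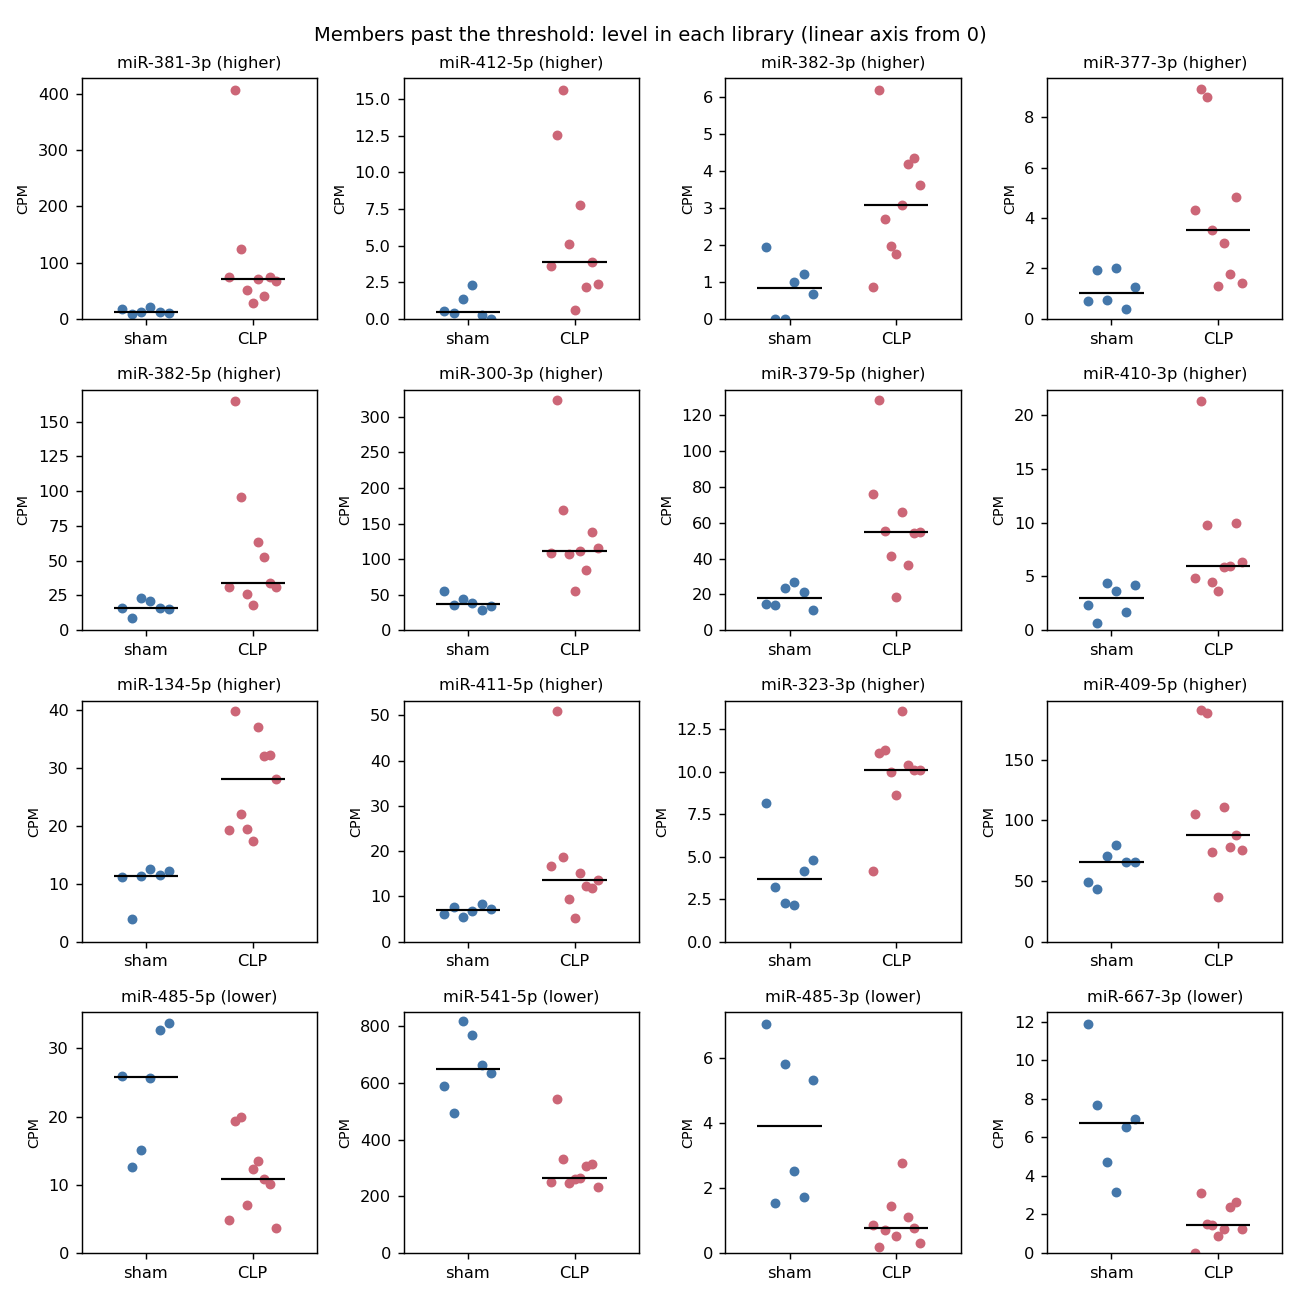
Level of each of the 16 members past the threshold in every library (points, CPM on a linear axis from 0; black lines are medians), 6 sham libraries in blue and 9 CLP libraries in red. CLP 2 is the top point for miR-381-3p (407 CPM), and the red points of miR-134-5p all lie above the blue ones.

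The other 8 tested members did not pass. miR-409-3p was among the most abundant, at 42.6, 51.3 and 71.9 CPM in sham and 56.6, 62.4 and 82.4 CPM in CLP, with a log2 fold change of 0.31 ± 0.16 (edgeR adjusted p = 0.113) that became 0.51 (0.0110) once the GC trend was removed. The GC-rich miR-666-5p was at 0.41 ± 0.37 (edgeR adjusted p = 0.386) and at 1.01 (0.0204) with that trend removed. The scarce miR-369-3p was at 1.57 ± 0.66 (edgeR adjusted p = 0.0562), and the shared row of miR-299a-3p and miR-299b-3p at 1.27 ± 0.55 (adjusted p = 0.0639). That shared row passed with replicates 1 to 6 of each group alone (1.58, 0.0232), was at 0.70 without CLP 2, and held counts that were not whole in 8 of 15 libraries, so its value is less certain. miR-369-3p passed in 5 alternative analyses, among them DESeq2 (1.51, 0.0378), limma voom (2.07, 0.0169) and leaving out CLP 5 (1.64, 0.0370) or sham 4 (1.81, 0.0440). miR-495-3p was at 0.99 ± 0.58 (edgeR adjusted p = 0.163) and passed without sham 6 (1.56, 0.0419) and with limma voom (1.47, 0.0447). The remaining 3, miR-496a-3p, miR-494-3p and miR-543-3p, were at 0.56 ± 0.55, 0.19 ± 0.40 and -0.26 ± 0.55 (edgeR adjusted p = 0.427, 0.718 and 0.717).

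In the hairpins that could be tested, no shift in the balance of the strands was detectable at this spread. The log2 ratio of the 3p to the 5p count was compared in the 3 hairpins with both strands tested. For miR-409, whose strands were of like abundance, the sham libraries averaged -0.21 ± 0.29 (SD, n = 6) and the CLP libraries -0.51 ± 0.75 (n = 9), which differ by -0.31 (exact two-sided permutation p = 0.367, adjusted over 3 hairpins 0.367). For miR-382 the difference was 1.12 (exact permutation p = 0.178, adjusted 0.307) and for miR-485 it was -0.86 (exact permutation p = 0.205, adjusted 0.307). The ratio spread widely within groups, with an SD of 2.09 for miR-382 in sham and 1.32 for miR-485 in CLP, so shifts of this size could not be told from the spread. For miR-382 the 3p strand had 0 counts in sham 2 and sham 3, so their ratios, -7.12 and -8.23, rest on the pseudocount of 0.5. The median ratio of miR-382 was -4.33 in sham and -3.69 in CLP. Of 23 hairpins with both strands in the table, the 5p strand had more reads over all libraries in 14 and the 3p strand in 9. The larger strand differed between the groups in 2, on few reads and with no test: for miR-369 the 3p and 5p strands held 31 and 41 counts in sham and 143 and 32 in CLP, and for miR-154 they held 0 and 5 in sham and 11 and 7 in CLP.

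The CLP libraries differed from each other, and CLP 2 and CLP 5 stood at the ends for most members that rose. Of the 12 members higher in CLP, 10 were highest in CLP 2 and 10 lowest in CLP 5. The same count over all 108 tested miRNAs higher in CLP was not made, so this need not be particular to the cluster. The median over these 12 of the log2 level relative to the sham mean was 2.72 in CLP 2 and 0.22 in CLP 5, and from 1.03 to 1.61 in the other 7. Of the 4 members lower in CLP, 2 were lowest in CLP 9, 1 in CLP 1 and 1 in CLP 2, and 2 were highest in CLP 2. CLP 5 also held the most red cell miRNA of the CLP libraries (summed miR-451a, miR-144 and miR-486 rows, 377730 CPM against 81481 to 232816 in the other 8) and the least striated muscle miRNA (5022 CPM against 9261 to 40714). CLP 2 had the highest neuron sum, 567 CPM, close to the 558 CPM of CLP 3. The part of these sums in the members' differences was not tested.

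**Figure D4:**
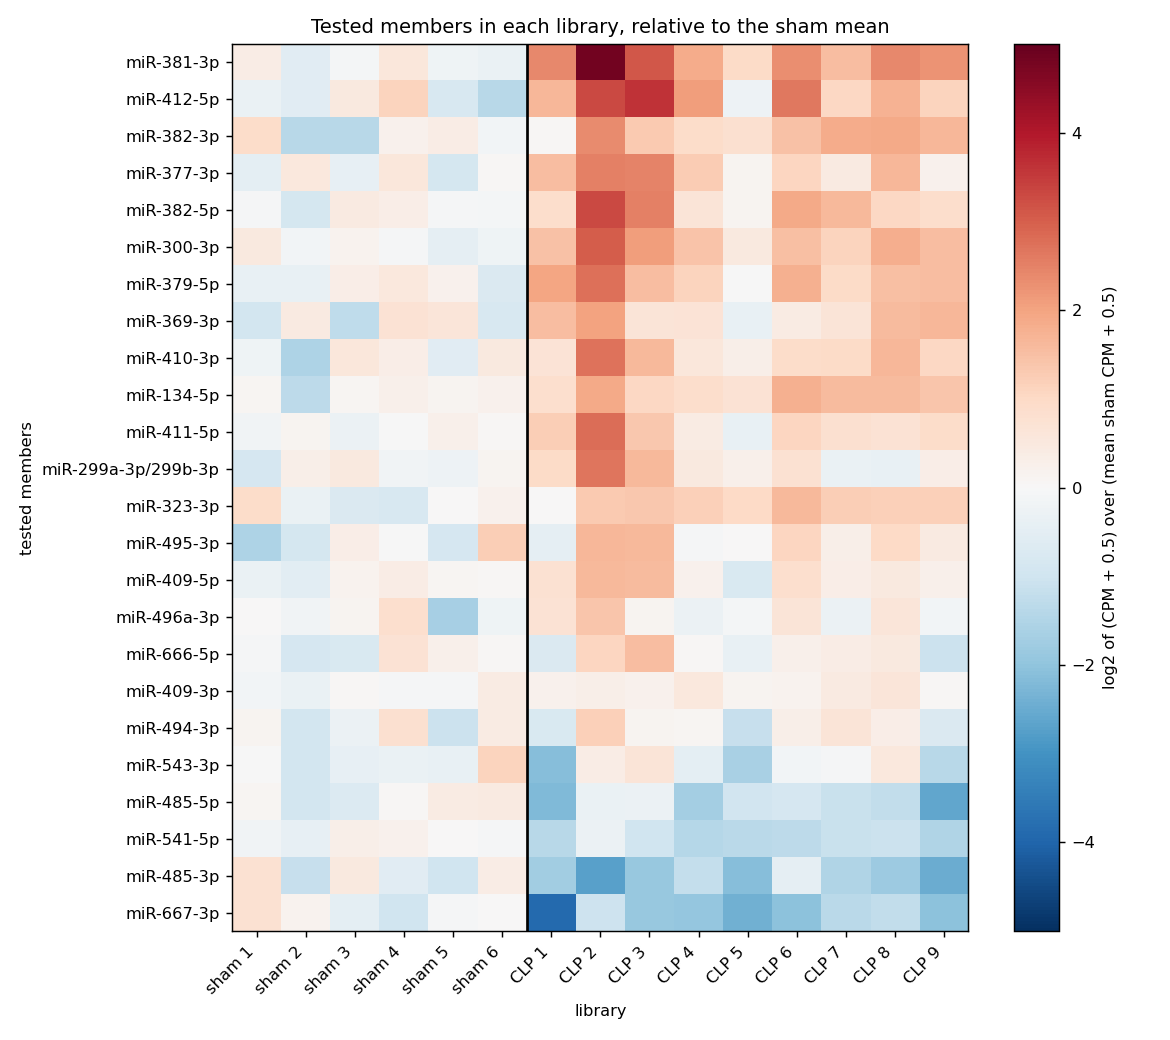
Level of the 24 tested members (rows, ordered by log2 fold change) in the 15 libraries (columns), as log2 of CPM + 0.5 over the sham mean + 0.5, red above and blue below. The CLP 2 column is the reddest for the rising members (median 2.72) and, of the CLP columns, CLP 5 is the palest there (median 0.22).

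Some markers of other tissues differed between the groups as well, in counts to be read beside the 25.4% higher and 21.8% lower of all tested miRNAs. Of 6 neuron miRNAs, 5 were tested and 2 were higher in CLP, miR-128-3p (log2 fold change 1.30) and miR-129-5p (2.64). The other tested rows, miR-9-3p (0.29), miR-219a-5p (0.47) and miR-124-3p (-0.61), did not pass. The neuron sum ran from 132 to 220.0 CPM in sham and from 197 to 567 in CLP. Of 7 striated muscle miRNAs, all tested, 4 were higher: miR-208b-3p (log2 fold change 4.48), miR-1a-3p (4.06), miR-206-3p (2.95) and miR-499-5p (1.94). The others, miR-208a-3p (1.24), miR-133a-3p (0.54) and miR-133b-3p (-0.60), did not pass. The muscle sum ran from 482 to 7253 CPM in sham and from 5022 to 40714 in CLP. Of 5 tested red cell rows 1 was lower, of 4 hepatocyte rows 0 passed in edgeR (0 also at an unadjusted p under 0.05, and 0 in DESeq2 and in limma voom), and of 4 platelet and megakaryocyte rows 1 was higher and 1 lower. The platelet sum ran from 43707 to 59806 CPM in sham and from 24244 to 33729 in CLP, the hepatocyte sum from 22486 to 46075 and from 14194 to 146646, and the red cell sum from 157331 to 454593 and from 81481 to 377730. The platelet rows did not move together. By log2 fold change miR-191-5p fell (-2.78) and miR-24-3p rose (0.84), while miR-126a-3p (-0.42) and miR-223-3p (0.36) did not pass. No marker was at 0 in all 15 libraries. The part of each list in the changes of the cluster's members was not tested.

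Upstream of the cluster the Dlk1-Dio3 region holds further miRNAs, of Meg3, the Rtl1 antisense transcript and Rian. Of their 28 rows 14 were tested, and 9 were higher and 1 lower in CLP, with a median log2 fold change of 1.69, beside 25.4% higher, 21.8% lower and a median of 0.11 over all tested miRNAs. The most abundant, miR-127-3p, an Rtl1 antisense miRNA, was at 418, 712 and 958 CPM in sham and 488, 1001 and 4460 CPM in CLP (1.24 ± 0.42, edgeR adjusted p = 0.0211), a call lost without sham 2, sham 3 or sham 6 (adjusted p from 0.0511 to 0.0554). miR-434-3p (1.72 ± 0.45), miR-136-3p (1.67 ± 0.34), miR-665-3p (2.12 ± 0.53) and miR-493-5p (3.52 ± 0.92) also rose, with edgeR adjusted p from 0.000509 to 0.00431. Without CLP 2, where miR-493-5p reached 40.3 CPM against a CLP median of 2.70, its log2 fold change was 2.57, and that of miR-665-3p was 1.54. miR-434-5p was the one that fell, from 118 ± 37.0 CPM (SD, n = 6) to 28.8 ± 11.2 (n = 9), and the groups did not overlap (-2.04 ± 0.25, edgeR adjusted p = 3.36e-06). All 9 that rose were highest in CLP 2, and 8 were lowest in CLP 5, again with no such count over all tested miRNAs beside it.

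Within the CLP group the summed levels of the cluster and of these upstream miRNAs went together. Most of the upstream sum was miR-127-3p, with a mean of 698 of 997 CPM in sham and 1648 of 2204 in CLP. The relation without miR-127-3p was not computed. Over the 9 CLP libraries Pearson's r of the log2 sums was 0.95 and Spearman's rho 0.82, and they were 0.88 and 0.61 without CLP 2 and CLP 3, the 2 farthest from the median cluster sum. Leaving out miR-541-5p, a choice made after seeing the data, gave 0.97 and 0.93, which became 0.95 and 0.86 without CLP 2 and CLP 5. In the 6 sham libraries r was 0.62 and rho 0.20, and they were 0.60 and 0.20 without sham 2 and sham 3. Without miR-541-5p the sham r was 0.84 and rho 0.54, which became -0.22 and -0.60 without sham 2 and sham 4, so that the relation rested on those libraries. These are descriptions with no test; both sums come from the same libraries with the same scaling factors.

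**Figure D5:**
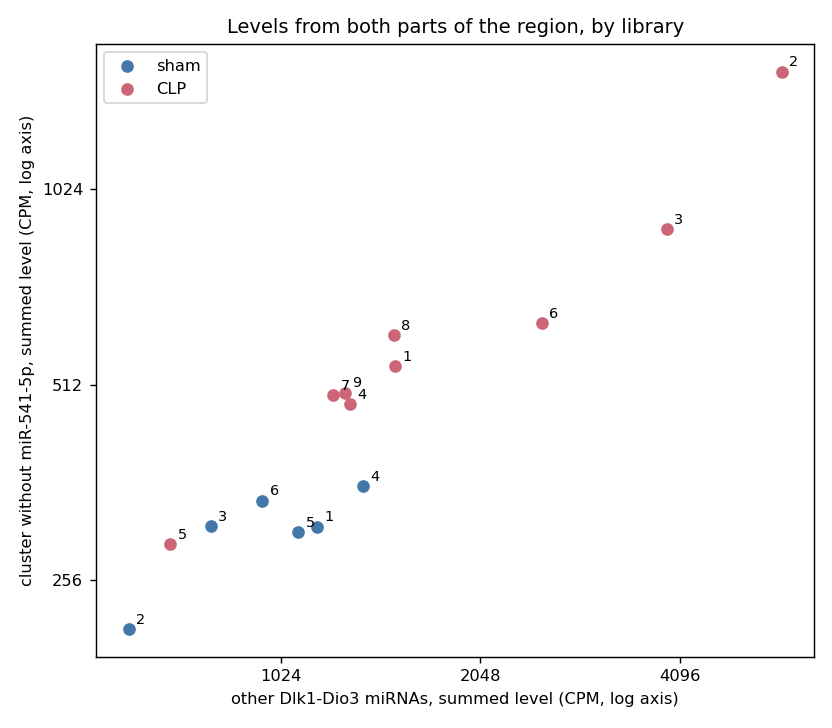
Summed level of the cluster without miR-541-5p (y axis) against that of the other Dlk1-Dio3 miRNAs (x axis), both in CPM on log axes, 1 point per library labelled with its number. CLP 2 and CLP 3 lie at the upper right, at 1551 and 888 CPM on the y axis, and CLP 5 lies among the sham libraries at 291 CPM.

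The remaining 37 rows were too scarce to be tested, with at most 7.72 CPM and 80 counts in any library. They include the miR-376 strands, known for A-to-I editing of the seed in brain. In 25 of the 37 a read was found in both groups, and 12 were read in CLP but at 0 in all 6 sham libraries, with at most 10 counts in any CLP library. CLP had 9 libraries and a median of 7553046 counts, against 6 libraries and 6500456 in sham. A scarce row thus had more chance to be read in CLP. The same share over all untested rows of the table was not computed. Of the 61 rows, 30 to 38 were read in a sham library and 37 to 51 in a CLP library. After each library was thinned to 5274676 counts these ranges were 30 to 36 and 35 to 47, and the medians 32.5 and 37. With no filter on low counts, 6 of the 37 passed as higher and 3 as lower, where 11.8% and 14.1% of all 1182 rows in that analysis did. Those 1182 include the 426 better-read rows that passed the filter, so their shares are not a like background for 37 scarce rows. The shares among scarce rows alone were not computed. The higher ones were miR-410-5p, miR-377-5p, miR-666-3p and miR-299b-3p, all at 0 in every sham library and at most 1.82 CPM in CLP, and miR-539-3p and miR-380-5p, at most 1.64 and 2.73 CPM in CLP (edgeR adjusted p from 0.00999 to 0.0476). A 0 in a sham library allows up to 0.289 to 0.502 CPM (3 counts), and miR-299b-3p reached only 0.473 CPM in CLP. The counts of miR-299b-3p were also not whole in 7 libraries, so its value is less certain. The lower ones were miR-668-3p, at 1.03 to 7.72 CPM in sham and 0 to 1.18 in CLP (log2 fold change -2.59 ± 0.60, edgeR adjusted p = 0.000201), and miR-411-3p and miR-541-3p (adjusted p = 0.0436 and 0.0379). Mir668 is the precursor just before Mir485, and miR-411-3p comes from the hairpin whose 5p strand rose.

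Base composition did not divide the members cleanly. The GC content of the mature strand was 36.4% to 59.1% in the 12 that rose (median 47.7%) and 44.0% to 65.2% in the 3 with a sequence that fell (median 54.5%), against a median of 47.8% over the 373 tested rows with a sequence. Across the 23 members Pearson's r of GC content with the log2 fold change was -0.39, and across the 373 rows -0.30, values across miRNAs that are not independent replicates. With the GC trend removed 12 members were higher and 4 lower, 10 of the 12 and all 4 being those of the analysis above. The members' order along the chromosome showed little relation to their change (r = 0.016, 23 members).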

How the data were processed

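The deposited table, made by the authors and named for the exceRpt small RNA pipeline, holds expected counts: reads per mature miRNA, not scaled for depth, with some fractions where reads match several miRNAs. The submitters' processing notes name mm10 as the build; which aligner, mismatch limit and miRNA release were used is not given in the sources used here. Each of the 15 columns was matched to 1 library by the file name in its label.

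Counts were rounded. Of 1205 rows, 426 passed filterByExpr. CLP was compared with sham by edgeR 4.0.16 (R 4.3.3) with TMM scaling and a robust quasi-likelihood F test over all tested rows, two-sided, no covariate, Benjamini-Hochberg adjusted, threshold 0.05. CPM is counts per 1000000 of TMM-adjusted library size, and the SE is the size of the log2 fold change over the square root of F. Arm ratios (pseudocount 0.5 counts) were compared by exact permutation. On simulated counts for 415 miRNAs in the same design, 61.8% of 2-fold and 100% of 4-fold changes were called, with 1.95% of calls false. Every simulated miRNA had the same dispersion, 0.2. Dispersions fitted to the tested members ran from 0.060 (miR-409-3p) to 0.71 (miR-412-5p), so these rates need not hold for each member. Between libraries of a group, chi-square divided by its degrees of freedom was at least 282 in sham and 432 in CLP, so no library copied another. Alternatives were DESeq2 1.42.0, limma 3.58.1 voom, other scalings and filters, removal of a GC trend (loess, span 0.75, on the 373 tested rows with a RefSeq mature sequence), a replicate block and leaving out libraries. Members named were every one past the filter. Members and lists were chosen with earlier results of these data known.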

Additional observations from a re-analysis of the deposited data

Results flagged for a closer look

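Of 56 sets of values examined (the 24 tested members, 3 strand ratios and the summed level in each group), 4 had 1 library set apart from the rest of its group by Dixon's ratio, and chance flags about 1 in 20 such sets. Values here are log2 of CPM + 0.5. miR-541-5p was at 9.09 in CLP 2 (544 CPM), where the next CLP library was at 8.37 (331 CPM). miR-667-3p was at -1.0 in CLP 1, with no read, where the next was at 0.47 (0.881 CPM). miR-323-3p was at 2.21 in CLP 1 (4.14 CPM), where the next was at 3.19 (8.63 CPM). miR-134-5p was at 2.16 in sham 2 (3.97 CPM), where the next sham library was at 3.55 (11.2 CPM); without sham 2 its log2 fold change was 1.19.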

How the results depend on the processing

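Of the 16 members past the threshold, 10 kept direction and call in every one of the 26 alternatives in which they were tested; miR-409-5p, miR-485-5p, miR-323-3p, miR-411-5p, miR-410-3p and miR-382-3p lost the call in at least 1. Replicate numbers did not pair the libraries: the deviations of same-numbered libraries correlated between -0.15 and -0.031 over 6 pairs, and 0 of 6 sham libraries correlated best with its own number. With the replicate block over 12 libraries, 8 members were higher and 3 lower (71 miRNAs higher in all), and with the GC trend also removed 9 and 3 (69 higher in all); miR-323-3p (adjusted p = 0.0505) lost its call in the former alone, and the other 5 of these members in both, while the shared miR-299a-3p and miR-299b-3p row passed in both (0.0421 and 0.0325). With no filter 7 members were lower (167 miRNAs in all), and with the stricter filter 2 of 14 tested were; both change the number tested. Leaving out 1 library gave 11 to 13 members higher and 4 to 5 lower. The sum's log2 difference of -0.083 became 0.99 without miR-541-5p, and ran from -0.23 to 0.0054 (without CLP 5) on leaving out 1 library. Among members not past the threshold, miR-494-3p changed sign with library size scaling (-0.036), with block and GC removal (-0.094) and without 1 library (-0.058 to 0.39), and miR-543-3p without CLP 1 and CLP 5 (0.072) or without 1 library (-0.51 to 0.15); the cause was not tested. Strand ratios could be recomputed with 10 counts in each strand for miR-409 alone. Members under about 5 CPM rest on few reads per library.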
